A study of Mus musculus with 16 samples.

Results

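Embryoid bodies grown from control mouse embryonic stem cells were compared at day 9 and day 6 of differentiation, the last interval of the series. The samples were chosen by label alone and were the 4 arrays titled REST +/+ d9 or REST +/+ d6, 2 per day, of 16 arrays in all. A gene was described as detected when its probe was above background in both arrays of either day, which held for 6608 of the 7505 genes tested. The day 9 group was of genotype REST +/+ and had undergone embryoid body differentiation for 9 days, and the day 6 group was of the same genotype after 6 days. The 2 knockout groups set beside them at the end, REST -/- at days 9 and 6, lacked the transcriptional repressor REST and were grown in the same way. Per the labels' protocols, both genotypes were kept on gelatin without feeder cells and with leukemia inhibitory factor (LIF), a cytokine that holds stem cells undifferentiated. Bodies were then formed in hanging drops without LIF for 2 days, moved to suspension in plates that prevent attachment for 7 days, and plated on gelatin after that. The labels do not say whether the day 9 bodies were collected before or after plating, so a change of culture surface and 3 further days of differentiation cannot be told apart. The control is 1 genotype with no clone or line named, and the arrays of a group are numbered without a statement that they were separate cultures, so a p-value here reflects array-to-array spread only, and this may be technical.

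Embryoid bodies are aggregates in which stem cells leave pluripotency and pass through a disordered version of gastrulation, giving derivatives of all germ layers side by side. In the mouse embryo the first red cells and the first vessels arise together in the yolk sac, and the visceral endoderm that covers them secretes the same plasma proteins that the fetal liver later makes. Another part of the mesoderm becomes connective tissue, whose cells secrete fibrillar collagens and the enzymes that cross-link them. Because each array measured RNA of whole bodies, fewer cells of a type and less RNA per cell cannot be told apart in any of the differences below.

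RNA was labelled with biotin and hybridised to Illumina bead arrays, and intensities are given as log2 of the background-corrected, quantile-normalized intensity plus 16, called the log2 intensity below. A fold on this scale understates the change of a dim gene. Probes above background numbered 8680 and 8930 on the day 9 arrays and 8805 and 8619 on the day 6 arrays, within the range of 6300 to 9045 over the 16 arrays. Across genes, the 2 arrays of a group correlated at r = 0.992 at day 9 and r = 0.983 at day 6. The day 6 arrays stood apart from each other. On the first principal component, which held 63.9% of the variance over the 16 arrays, the day 9 arrays lay at 57.6 and 58.9, day 6 replicate 1 at 45.4 and day 6 replicate 2 at 35.5, beside 34.8 and 35.9 for the knockout arrays of day 6. Of the 2092 genes called below, 1483 (70.9%) lay nearer to their day 9 level in day 6 replicate 1 than in replicate 2. Over all 2092, replicate 1 lay a median of 17.7% of the way from replicate 2 to the day 9 mean. Whether replicate 1 was a later culture or differed in another way was not tested, and results that rest on either day 6 array are given with and without it. The Rest probe was above background on 0 of the 16 arrays, so it did not check the genotype labels.

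From day 6 to day 9 the control bodies gained transcripts of secreted liver-type plasma proteins, connective tissue matrix and white blood cells, and lost transcripts of embryonic red cells, endothelium and DNA replication. In all, 2092 of 7505 genes were called in limma, with a threshold of 0.05 on the p adjusted by Benjamini-Hochberg, which was 27.9% of the genes tested. Of these 1049 (14%) were higher and 1043 (13.9%) were lower at day 9, and 2023 of the 2092 were among the detected genes. A change of at least 2-fold was seen in 382 higher and 157 lower genes. In all 2092 called genes both day 9 arrays lay beyond both day 6 arrays, an ordering that 31.8% of all genes showed upward and 33.9% downward. The median change over all genes was -0.02. Of the higher genes 229 were below background at day 6, and of the lower genes 128 were below background at day 9. For those genes a fold is given as a lower bound, written as at least, which sets the mean of the brighter day against the lowest normalized intensity of any detected probe, or the gene's own intensity where that was higher. With arrays centred on their medians in place of quantile normalization, the median change of all genes was -0.32 and the split was 552 higher and 2754 lower, so that 16.7% of the calls were higher, against 50.1%. Small changes of either sign are therefore relative to the quantile scale, and for the gene groups below the counts with median centring, or with an array left out, are given where they move a count by much. The gene lists were chosen with earlier results of these data known, so the counts of their members below are descriptions and not tests.

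**Figure D1:**
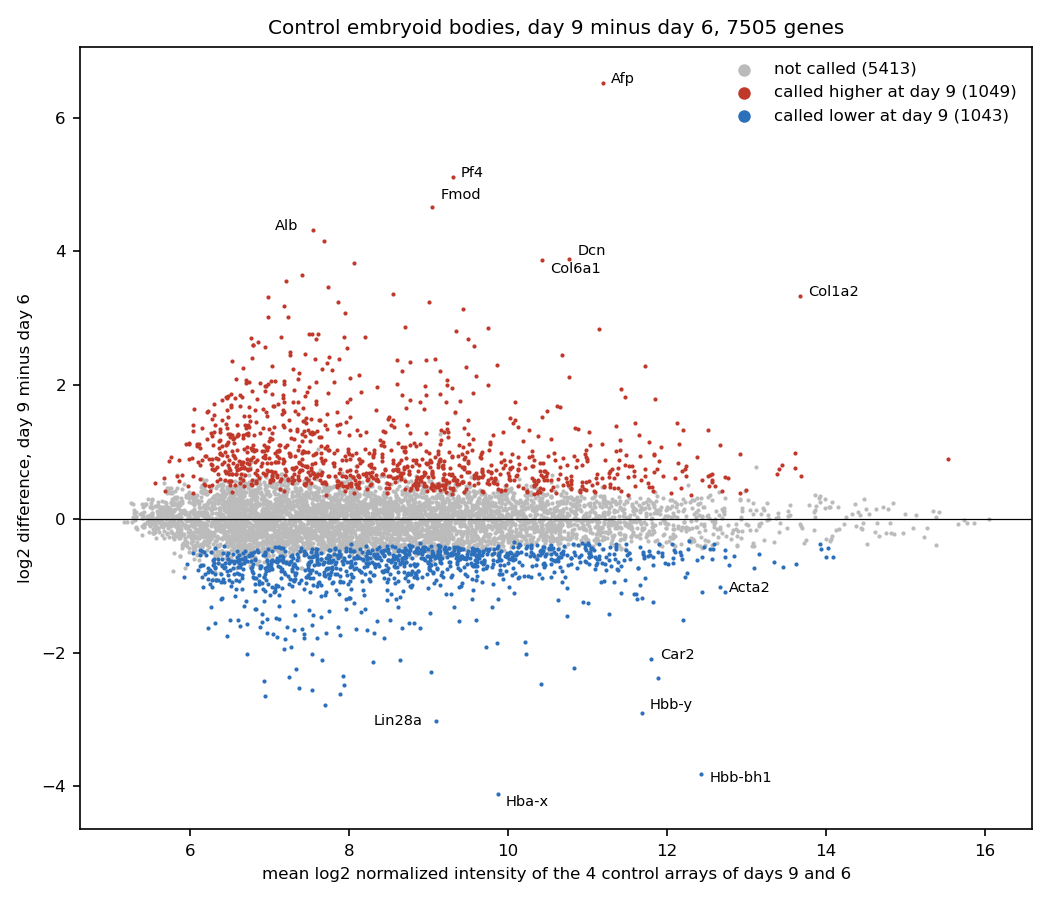
Each point is 1 of the 7505 genes tested, with the mean log2 intensity of the 4 control arrays on the horizontal axis and the log2 difference, day 9 minus day 6, on the vertical axis. Red points are the 1049 genes called higher at day 9, blue points the 1043 called lower and grey points the rest; Afp stands at the top with a difference of 6.52 and Hba-x at the bottom with -4.11.

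The 15 genes with the largest rise were Afp, Pf4, Fmod, Alb, Ambp, Dcn, Col6a1, Msc, Itih2, Apoa2, Fgb, Il1r1, Col1a2, Mstn and Col1a1. They divide into plasma proteins (Afp, Alb, Ambp, Itih2, Apoa2 and Fgb), matrix proteins (Fmod, Dcn, Col6a1, Col1a2 and Col1a1), the platelet factor 4 chemokine Pf4, and 3 others. Of those 3, Msc (musculin), a basic helix-loop-helix repressor, had log2 intensities of 9.95 and 10.01 at day 9, against 6.42 and 5.88 at day 6, a rise of at least 10.7-fold. Mstn encodes myostatin, a secreted TGF-beta family protein that limits muscle growth, and stood at 8.55 and 8.72 at day 9, against 5.32 and 5.31 at day 6, at least 4.22-fold higher. Il1r1, the signalling receptor of interleukin 1, stood at 10.03 and 10.45 at day 9, against 7.44 and 6.30 at day 6. The adjusted p was 2.93e-09 for Msc, 8.57e-10 for Mstn and 5.77e-07 for Il1r1, and in each of these genes the days did not overlap. The 15 genes with the largest fall were Hba-x, Hbb-bh1, Lin28a, Hbb-y, Greb1, Cited4, Frzb, Car4, Tek, Rnf128, Slc39a8, Twist1, Spink1, Alas2 and Hapln1. Of these Hba-x, Hbb-bh1, Hbb-y and Alas2 serve hemoglobin production in red cells, Tek is an endothelial receptor, Frzb a secreted Wnt antagonist and Lin28a an RNA-binding protein of early embryonic cells. Car4, a membrane-bound carbonic anhydrase, was below background at day 9 and at least 4.85-fold lower, with a fitted change of -2.56, or of -1.63 without day 6 replicate 2. Slc39a8, a zinc and manganese importer, stood at 9.14 and 9.21 at day 9, against 11.54 and 11.74 at day 6, and fell by 2.47 ± 0.17 (adjusted p = 1.94e-07). Hapln1, which ties hyaluronan to proteoglycans in embryonic matrix, stood at 6.79 and 6.69 at day 9, against 8.91 and 9.27 at day 6, and fell by 2.35 ± 0.15 (adjusted p = 7.38e-08). Errors given with a change are the standard error of the limma fit with 2 arrays per day, and every adjusted p is from that fit.

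Transcripts of albumin and other plasma proteins, most of them below background at day 6, were present at day 9. Of the 13 tested members of the liver-type plasma protein list 11 were higher and 0 lower at day 9, beside 14% of all genes, with a median change of 1.70, beside -0.02 over all genes, or 0.80 with genes below background placed at their bound. Of the 13, 10 were above background at day 9 only and could be called in 1 direction only, so the count is a description and is not read against the share of all genes. Alb and Afp are neighbours in the same gene family, with starts 29.8 kb apart on chromosome 5. Afp encodes alpha-fetoprotein, the main plasma protein of the yolk sac and fetal liver. Its log2 intensity was 14.55 and 14.35 at day 9, against 8.45 and 7.40 at day 6, a rise of 6.52 ± 0.25 or 92.1-fold (adjusted p = 3.33e-10). Both day 6 arrays were already above the day 0 and day 3 arrays, which lay between 5.29 and 5.48. Alb, the carrier protein albumin, stood at 9.78 and 9.61 at day 9, against 5.43 and 5.34 at day 6, where it was below background, a rise of at least 8.81-fold (adjusted p = 4.09e-11). Ambp, the precursor of the protease inhibitor bikunin, stood at 9.83 and 9.69 at day 9, against 5.66 and 5.54 at day 6, at least 9.23-fold higher. Itih2, a heavy chain that is joined to bikunin, stood at 9.31 and 9.14 at day 9, against 5.70 and 5.47 at day 6, at least 6.36-fold higher. Fgb, one of the chains of the clotting protein fibrinogen, stood at 9.53 and 9.41 at day 9, against 5.73 and 6.28 at day 6, at least 7.53-fold higher. In each of these 5 genes both day 9 arrays lay above both day 6 arrays. Fga, another fibrinogen chain, was below background at day 6 and at least 1.09-fold higher (adjusted p = 7.11e-05), and Fgg, the last of the chains, was not detected at either day. Trf, the iron carrier transferrin, was at least 3.17-fold higher, and Kng1, the precursor of bradykinin, at least 1.74-fold higher. The inhibitors of blood proteases Serpinc1 (antithrombin), Serpina1b (an alpha-1-antitrypsin) and Serpinf2 (the inhibitor of plasmin) were at least 1.60, 1.52 and 1.37-fold higher. Other Serpinf2 probes had fitted changes of 3.23 and 0.95, against 0.95 on the probe used, so its size is uncertain. Serpina1b belongs to a family of near-identical copies whose signal its probe may share. The 2 members not called were Ttr, the thyroxine carrier transthyretin, with 11.55 and 11.49 at day 9, against 11.03 and 12.58 at day 6, and Rbp4, the retinol carrier that binds to transthyretin. Rbp4 stood at 11.47 and 11.12 at day 9, against 11.52 and 11.52 at day 6. Both were above background at both days, the days overlapped for Ttr, and for Rbp4 both day 9 arrays lay below both day 6 arrays. Without day 6 replicate 2, 11 members were again higher and 0 lower, and without day 6 replicate 1, 11 were higher and 1 lower. The lower one was Ttr, at -1.06 (adjusted p = 0.00115), which changed by 0.49 (adjusted p = 0.105) without day 6 replicate 2.

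Genes of lipid export were mostly higher too. Of 8 tested apolipoprotein and lipid export genes 6 were called higher and 0 lower, with a median change of 1.26. Of the 8, 2 were above background at day 9 only, 1 at day 6 only and 1 on neither day. The count is therefore a description and is not read against the 14% and 13.9% of all genes. Apoa2, a structural protein of high-density lipoprotein, stood at 9.06 and 8.89 at day 9, against 5.33 and 5.52 at day 6, a rise of at least 5.35-fold (adjusted p = 1.52e-09). Its partner Apoa1 was at least 1.50-fold higher, Abca1, the pump that loads lipid onto it, rose by 1.50 ± 0.16 (adjusted p = 1.09e-05), and Clu (clusterin), a secreted chaperone, rose by 2.35 ± 0.20 (adjusted p = 9.14e-07). Apoc1 was called but was below background on every array of both days, so its call gives no level, and Apoe was not called, with 8.03 and 8.16 at day 9, against 8.22 and 9.00 at day 6. Pltp, the phospholipid transfer protein, rose by 1.04 ± 0.28 (adjusted p = 0.0122) with both day 6 arrays, but was not called without day 6 replicate 2 (adjusted p = 0.187) or without day 9 replicate 1 (adjusted p = 0.108). Leaving out day 6 replicate 1 gave 5 higher and 2 lower members, and leaving out day 6 replicate 2 gave 4 higher and 0 lower. Apoe was 1 of the 2 lower members without day 6 replicate 1, at -0.90 (adjusted p = 0.0127).

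Few genes for the absorptive surface of visceral endoderm were called. Of 13 tested members 3 were below background at both days. Among the 13, 1 was higher (7.69%) and 3 were lower (23.1%), beside 14% and 13.9% of all genes, with a median of 0.10. These counts were 2 and 4 without day 6 replicate 1, 3 and 2 without day 6 replicate 2, and 1 and 4 with median centring, where the median was -0.19. The higher one was Anpep, an aminopeptidase of absorptive cells, which rose by 1.47 ± 0.21 (adjusted p = 0.000155). The lower ones were Spink1, a trypsin inhibitor, the lysosomal protease Ctsh, and Dpp4, a surface peptidase. Spink1 stood at 10.68 and 10.72 at day 9, against 12.21 and 13.94 at day 6, and fell by 2.37 ± 0.36 (adjusted p = 0.00023). Ctsh was at least 2.58-fold lower and Dpp4 at least 1.37-fold lower, both below background at day 9, and Dpp4 was not called without day 6 replicate 2 (adjusted p = 0.108). The endocytic receptors Amn and Lrp2, which mark this endoderm in the embryo, were not detected at either day. Among 7 tested endoderm regulators, Sox17, which marks early endoderm and vessels, fell by 1.35 ± 0.28 (adjusted p = 0.00266) and Grhl2, an epithelial factor, rose by 0.88 ± 0.19 (adjusted p = 0.00371). The liver and gut factor Hnf4a was below background at day 6 and at least 1.16-fold higher (adjusted p = 0.0279). Hnf4a was not called without day 6 replicate 2 (adjusted p = 0.175), without day 9 replicate 2 (adjusted p = 0.251) or with median centring (adjusted p = 0.0901). Cdx2, a gut and trophoblast factor, fell by 0.87 ± 0.26 (adjusted p = 0.0216). Its call was lost without day 6 replicate 2 (adjusted p = 0.308), day 9 replicate 1 (adjusted p = 0.0977) or day 9 replicate 2 (adjusted p = 0.0835), with the deposited value table (adjusted p = 0.15) or without background correction (adjusted p = 0.136). Of the 7 endoderm regulators 2 were higher and 2 lower, beside 14% and 13.9% of all genes, or 1 and 3 with median centring. Among 13 tested epithelial genes 0 were higher and 4 lower, beside 14% and 13.9% of all genes. The keratin Krt8 fell by 1.24 ± 0.16 (adjusted p = 4.2e-05), and Pkp2, a plakophilin of desmosomes, fell by 2.12 ± 0.25 (adjusted p = 2.66e-05). Lsr, a tricellular junction protein, fell by 0.86 ± 0.13 (adjusted p = 0.00024), and Krt18, the partner of Krt8, fell by 1.19 ± 0.31 (adjusted p = 0.0107). Krt18 was not called without day 6 replicate 2 (adjusted p = 0.149), day 9 replicate 1 (adjusted p = 0.0561) or day 9 replicate 2 (adjusted p = 0.0558). Spink1 (-1.51), Ctsh (-1.13) and Sox17 (-0.70) had smaller changes without day 6 replicate 2 but were still called, and Cdx2 changed by -1.35 without day 6 replicate 1.

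Genes of the interstitial matrix rose together. Of 22 tested genes for fibrillar collagens and their partners 18 were higher and 1 was lower, beside 14% and 13.9% of all genes. Their median was 1.50, and 19 of the 22 had their highest level of the 4 days at day 9. Of the 22, 4 were above background at day 9 only and could be called in 1 direction only. Col1a1 and Col1a2 encode the 2 chains of type I collagen. Col1a1 stood at 10.68 and 10.58 at day 9, against 8.01 and 6.74 at day 6, a rise of 3.25 ± 0.35 (adjusted p = 8.72e-06). Col1a2 stood at 15.37 and 15.32 at day 9, against 12.38 and 11.64 at day 6, a rise of 3.33 ± 0.24 (adjusted p = 1.94e-07). For both chains the 2 days did not overlap, and day 6 replicate 1 was the higher of the day 6 arrays. Col6a1, a chain of the beaded filaments around cells, stood at 12.33 and 12.39 at day 9, against 8.95 and 8.04 at day 6, a rise of 3.87 ± 0.24, and its partner Col6a2 was at least 4.55-fold higher. Dcn (decorin), a small proteoglycan that binds collagen fibrils, stood at 12.75 and 12.68 at day 9, against 9.18 and 8.48 at day 6, a 14.8-fold rise (adjusted p = 5.5e-09). Other collagen-binding proteoglycans rose as well. Fmod (fibromodulin) stood at 11.56 and 11.18 at day 9, against 7.78 and 5.64 at day 6 (adjusted p = 1.83e-06). Lum (lumican) rose by 2.30 ± 0.33 (adjusted p = 0.000139), and Bgn (biglycan) was at least 3.60-fold higher. Col5a2 and Col11a1, minor chains that set fibril width, rose by 2.38 ± 0.23 and 2.72 ± 0.26, and Igfbp7, a secreted binding protein deposited in matrix, by 2.82 ± 0.24. Col3a1, the chain of type III collagen, was near the top of the scale at both days, with 15.98 and 15.98 at day 9, against 15.49 and 14.68 at day 6, a rise of 0.90 ± 0.20 (adjusted p = 0.00446). A second, dimmer Col3a1 probe changed by 2.46, and the call was lost without day 6 replicate 2 (adjusted p = 0.0633) or with the deposited value table (adjusted p = 0.0572). The lower member was Ccn1, a matricellular protein known as a rapid target of serum and YAP signalling, which fell by 0.76 ± 0.18 (adjusted p = 0.00611) and was not called without day 9 replicate 2 (adjusted p = 0.0724). Without day 6 replicate 1 the list again gave 18 higher and 1 lower, and without day 6 replicate 2 it gave 15 and 1, with Lum at 1.51.

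Enzymes that fold, trim and cross-link collagen rose with their substrates. Of 18 tested 13 were higher and 1 lower, beside 14% and 13.9% of all genes, with a median of 0.79. Of the 18, 2 were above background at day 9 only and could be called in 1 direction only. Lox, the lysyl oxidase that starts cross-links between collagen molecules, stood at 7.62 and 7.97 at day 9, against 5.47 and 5.60 at day 6, below background, a rise of at least 2.36-fold (adjusted p = 3.22e-07). Its relative Loxl1 rose by 1.52 ± 0.19 (adjusted p = 4.2e-05). P4ha1, which hydroxylates prolines so that the triple helix holds, was at least 2.85-fold higher, and Serpinh1, the collagen chaperone HSP47, rose by 1.11 ± 0.16 (adjusted p = 0.000134). Pcolce, an enhancer of procollagen trimming, rose by 1.48 ± 0.26 (adjusted p = 0.000699), and Timp1, an inhibitor of matrix metalloproteinases, by 1.88 ± 0.17 (adjusted p = 1.32e-06). Without day 6 replicate 1 the list gave 12 higher and 0 lower members, without day 6 replicate 2 or day 9 replicate 2 it gave 8 and 0, and with median centring 8 and 1. Basement membrane, the sheet under epithelia and around vessels, moved less. Of 17 tested genes 6 were higher and 1 was lower, beside 14% and 13.9% of all genes, with a median of 0.28. Under median centring 4 were higher and 5 lower, with a median of -0.16. Col4a5 and Sparc, a collagen-binding glycoprotein, rose by 1.72 ± 0.20 (adjusted p = 2.23e-05) and 1.34 ± 0.17 (adjusted p = 3.89e-05). Col4a2, a chain of the type IV collagen that all basement membranes share, was the lower member, with 7.90 and 8.05 at day 9, against 8.50 and 8.87 at day 6 (-0.71 ± 0.19, adjusted p = 0.0129). It was not called without day 6 replicate 2 (Col4a2 adjusted p = 0.136) or day 9 replicate 1 (adjusted p = 0.0849), with the deposited value table (adjusted p = 0.209) or without background correction (adjusted p = 0.206). The basement membrane counts were 7 and 2 without day 6 replicate 1.

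Regulators of mesenchyme were mixed, with a median of 0.37. Of 16 tested 5 were higher and 3 lower, beside 14% and 13.9% of all genes. Median centring turned this balance, giving 2 higher and 5 lower with a median of 0.10, and leaving out day 6 replicate 2 or either day 9 array gave 3 and 2. Twist1, a factor of early mesoderm and neural crest mesenchyme, stood at 5.69 and 5.74 at day 9, below background, against 7.67 and 8.62 at day 6, and was at least 3.07-fold lower (adjusted p = 3.52e-06). The homeobox gene Msx1, a target of BMP signalling in embryonic mesenchyme, fell by 1.86 ± 0.22 (adjusted p = 2.15e-05). Tcf21, a factor of visceral and epicardial mesenchyme, was at least 1.68-fold higher. Zeb1, a repressor of epithelial genes, rose by 0.73 ± 0.16 (adjusted p = 0.0032), or by 0.39 with median centring, where it was not called (adjusted p = 0.0656). Wt1, which marks the mesothelial lining and the epicardium, stood at 8.79 and 9.13 at day 9, against 7.05 and 6.02 at day 6, a rise of 2.43 ± 0.30 (adjusted p = 3.44e-05). The other called member of the 4 tested mesothelial genes, Lrrn4, was lower at day 9, where it was below background, by at least 1.11-fold. Lrrn4 was not called without day 6 replicate 2 (adjusted p = 0.203), day 9 replicate 1 (adjusted p = 0.0876) or day 9 replicate 2 (adjusted p = 0.0519).

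Among growth factor pathways, 12 of 22 tested BMP and TGF-beta genes were higher and 2 lower, beside 14% and 13.9% of all genes. Their median was 0.46. Of the 22, 3 were above background at day 9 only and 2 on neither day. The counts were 9 and 3 without day 6 replicate 1, 8 and 0 without day 6 replicate 2, 7 and 1 without day 9 replicate 1, 7 and 0 without day 9 replicate 2, and 7 and 5 with median centring. Ltbp3 and Ltbp4 encode proteins that tether latent TGF-beta to matrix. Ltbp3 stood at 9.13 and 9.37 at day 9, against 6.90 and 6.50 at day 6 (2.55 ± 0.20, adjusted p = 5.33e-07), and Ltbp4 was at least 5.01-fold higher. Tgfbr2, the receptor chain that binds TGF-beta, stood at 10.47 and 10.52 at day 9, against 8.83 and 8.39 at day 6 (1.88 ± 0.21, adjusted p = 1.24e-05). Tgfbi, a matrix protein induced by TGF-beta in many cells, rose by 1.30 ± 0.23 (adjusted p = 0.000883), and Bmper, a secreted BMP binder, by 1.31 ± 0.17 (adjusted p = 4.8e-05). Of 21 tested Wnt pathway genes 8 were higher and 1 lower, beside 14% and 13.9% of all genes, with a median of 0.46. Of the 21, 1 was above background at day 9 only and 2 on neither day. Without either day 9 array in turn 5 were higher and 1 lower, or 5 and 3 with median centring. The higher ones held the ligand Wnt5b (2.23 ± 0.17, adjusted p = 3.73e-07) and several secreted antagonists, among them Sfrp2 (1.75 ± 0.16, adjusted p = 1.83e-06), Notum (1.69 ± 0.24, adjusted p = 0.000117), Dkk2 (1.44 ± 0.24, adjusted p = 0.000501) and Dkk3 (0.88 ± 0.14, adjusted p = 0.000406). The rise of Dkk2 was 0.94 without day 6 replicate 2. The antagonist Frzb ran the other way and was the lower member, with 6.70 and 6.45 at day 9, against 8.86 and 9.51 at day 6 (adjusted p = 8.95e-06). Axin2, a feedback target that is commonly read as a measure of Wnt signalling through beta-catenin, was not called, with 7.27 and 7.39 at day 9, against 7.52 and 7.83 at day 6. Of 12 tested genes of insulin-like growth factor binding 5 were higher and 2 lower, beside 14% and 13.9% of all genes. The higher ones were all binding proteins. Besides Igfbp7, Igfbp1 was at least 2.90-fold and Igfbp3 at least 2.25-fold higher. Igfbp5 rose by 0.64 ± 0.14 (adjusted p = 0.00325), or by 0.24 with median centring, where it was not called (adjusted p = 0.183). Median centring gave 3 higher and 3 lower genes of insulin-like growth factor binding, and 0 were lower without day 6 replicate 2 or day 9 replicate 1. The retinoic acid receptor Rarb rose by 1.77 ± 0.26 (adjusted p = 0.000183). Of 8 tested genes of that pathway 2 were higher and 1 lower, beside 14% and 13.9% of all genes. Median centring gave 1 higher and 2 lower.

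**Figure D2:**
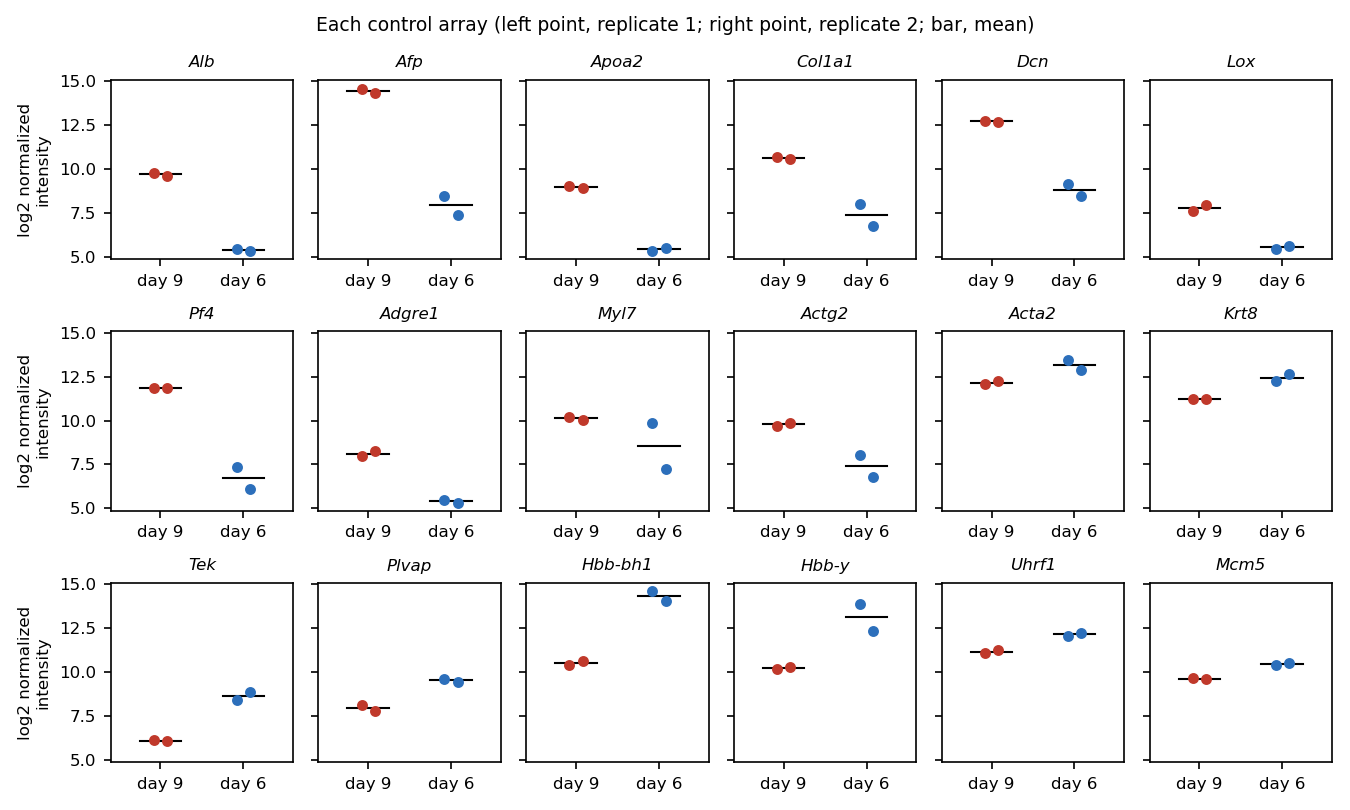
Log2 intensity of 18 genes in each of the 4 control arrays, day 9 on the left of each panel in red and day 6 on the right in blue, with replicate 1 to the left of replicate 2 and a bar at the mean of the 2 arrays. The days do not overlap in any panel, but the day 6 arrays of Myl7 lie far apart, at 9.85 and 7.24, against 10.22 and 10.02 at day 9.

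For heart muscle, the lineage the series is about, several values rested on 1 array of day 6. Of 11 tested sarcomere genes 4 were higher and 2 lower, with a median of 1.00, or 0.62 with genes at their bound. Of the 11, 3 were above background at day 9 only and could be called in 1 direction only. The count is therefore a description and is not read against the 14% and 13.9% of all genes. Myl2, the ventricular regulatory light chain, stood at 8.50 and 8.46 at day 9, against 6.30 and 5.77 at day 6, below background, a rise of at least 3.79-fold (adjusted p = 3.22e-07). Hspb7, a small heat shock protein of heart muscle, was at least 1.83-fold higher and Myh6, the alpha myosin heavy chain, at least 1.30-fold higher (adjusted p = 0.00386). Other sarcomere genes were much brighter in day 6 replicate 1 than in replicate 2. Actc1, cardiac actin, stood at 11.62 and 11.35 at day 9, against 11.04 and 8.58 at day 6 (1.68 ± 0.57, adjusted p = 0.0418). Myl7, the atrial regulatory light chain, stood at 10.22 and 10.02 at day 9, against 9.85 and 7.24 at day 6 (1.58 ± 0.66, adjusted p = 0.0887). Myl4, the atrial essential light chain, stood at 9.80 and 9.76 at day 9, against 9.62 and 7.39 at day 6 (1.27 ± 0.60, adjusted p = 0.128). Without day 6 replicate 1 the list gave 7 higher and 1 lower, with Actc1 at 2.90, Myl7 at 2.88 (adjusted p = 0.00198) and Myl4 at 2.39 (adjusted p = 0.00535). Leaving out day 6 replicate 2 gave 2 and 2, with Actc1 at an adjusted p of 0.547 and Myh6 at 0.0657. Myh6 was also not called with the deposited value table (adjusted p = 0.0688) or without background correction (adjusted p = 0.0638), and both settings gave 2 higher and 1 lower sarcomere gene. Actc1 was also not called without day 9 replicate 1 (adjusted p = 0.165) or replicate 2 (adjusted p = 0.115), nor with median centring (adjusted p = 0.0755), the deposited value table (adjusted p = 0.0794) or no background correction (adjusted p = 0.0783). The lower members were Tpm1, a tropomyosin shared by heart and smooth muscle, which fell by 1.12 ± 0.12 (adjusted p = 1.19e-05), and Nexn, a protein of the Z-disc. Nexn fell by 0.62 ± 0.16 (adjusted p = 0.00957) on the probe used and changed by 0.19 on its other probe. Nexn was not called without day 6 replicate 1 (adjusted p = 0.0655) or day 9 replicate 1 (adjusted p = 0.0891), with the deposited value table (adjusted p = 0.215) or without background correction (adjusted p = 0.212). The titin gene Ttn, the alpha-actinin gene Actn2, the troponin gene Tnni3 and the beta myosin gene Myh7 were not detected at either day. Of 6 tested genes for calcium handling and conduction 3 were higher and 0 lower, beside 14% and 13.9% of all genes. Of the 6, 1 was above background at day 9 only and 1 on neither day. The sodium-calcium exchanger Slc8a1 rose by 1.50 ± 0.31 (adjusted p = 0.00281), the gap junction gene Gja5 was at least 1.67-fold higher, and the calcium pump gene Atp2a2 rose by 0.75 ± 0.20 (adjusted p = 0.0116). The call of Atp2a2 was lost without day 6 replicate 2 (adjusted p = 0.161), day 9 replicate 1 (adjusted p = 0.0548) or day 9 replicate 2 (adjusted p = 0.0627), or with median centring (adjusted p = 0.13). Of 11 tested cardiac regulators 0 were higher and 1 lower, beside 14% and 13.9% of all genes. The lower one was Tbx3 (-1.01 ± 0.31, adjusted p = 0.0248). Its call was lost without day 6 replicate 2 (adjusted p = 0.324), day 9 replicate 1 (adjusted p = 0.0843) or day 9 replicate 2 (adjusted p = 0.115). Tbx3 changed by -1.53 without day 6 replicate 1. The cardiac regulator list gave 5 lower and 0 higher members with median centring, with a median of -0.51, 2 lower and 0 higher without either day 6 array in turn, and 0 of both without either day 9 array in turn.

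The smooth muscle genes that were called were mostly lower, with Actg2 the exception. Actg2, the gamma actin of gut muscle, stood at 9.70 and 9.87 at day 9, against 8.04 and 6.77 at day 6, a rise of 2.38 ± 0.29 (adjusted p = 3.27e-05). Acta2, the alpha actin of vessel muscle and myofibroblasts, stood at 12.07 and 12.24 at day 9, against 13.46 and 12.90 at day 6, a fall of 1.02 ± 0.22 (adjusted p = 0.00284), and its 4 detected probes changed by between -1.08 and -0.97. Of 11 tested genes 1 was higher (9.09%) and 4 were lower (36.4%), beside 14% and 13.9% of all genes. With median centring these counts were 1 and 6. The lower ones included Csrp1, a LIM protein of smooth muscle (-1.25 ± 0.14, adjusted p = 1.39e-05), and the calponin Cnn2 (-0.73 ± 0.15, adjusted p = 0.0027). The other Cnn2 probe changed by -0.28. Of the skeletal muscle list 1 gene was tested and not called, and Myog, Myod1 and Acta1 were not detected at either day.

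White blood cell transcripts, most of them below background at day 6, were higher at day 9. Of 18 tested genes of macrophages, megakaryocytes and other white cells 16 were called higher and 1 was lower, with a median of 1.09, or 0.51 with genes at their bound. Of the 18, 12 passed the filter in these groups through day 9 only, so those 12 could be called in 1 direction only. The count is therefore a description and is not read against the 14% of all genes called higher. Over the settings tried, apart from the 2-fold threshold, 11 to 17 members were higher and 0 to 3 lower. Without day 6 replicate 1 these counts were 15 and 1. Pf4, a chemokine of platelet granules that early macrophages also make, stood at 11.87 and 11.84 at day 9, against 7.38 and 6.10 at day 6, a 34.7-fold rise (adjusted p = 1.1e-08). At day 6 its probe was above background on 1 of the 2 arrays. Adgre1, the macrophage surface antigen F4/80, stood at 7.96 and 8.26 at day 9, against 5.49 and 5.32 at day 6, a rise of at least 2.93-fold (adjusted p = 2.11e-08). Laptm5, a lysosomal protein of blood cells, was at least 5.42-fold higher, with 9.08 and 8.91 at day 9, against 6.50 and 5.95 at day 6. In none of these 3 genes did the days overlap. Coro1a, an actin regulator of leukocytes, rose by 2.19 ± 0.19 (adjusted p = 1.28e-06), and Ppbp, a second chemokine of platelets, was at least 2.89-fold higher. C1qc, a chain of complement C1q that tissue macrophages secrete, was at least 1.52-fold higher, while C1qa and C1qb, which encode its partner chains, were not detected at either day. Spi1 (PU.1), the master factor of the lineage, was not called, with 8.86 and 8.78 at day 9, against 8.67 and 8.40 at day 6. The lysozyme genes Lyz1 and Lyz2 are near-identical copies. Lyz2, 1 of the 16 called higher, was below background at both days, so its call gives no level. Lyz1 was below background at day 6 and too dim at day 9 for a bound. Its call (adjusted p = 0.0153) was lost without day 6 replicate 1 (adjusted p = 0.0613), day 6 replicate 2 (adjusted p = 0.0587) or day 9 replicate 2 (adjusted p = 0.113). The lower member was Myb, a factor of blood progenitors, which was below background at day 9 and at least 1.21-fold lower. Myb was not called without day 6 replicate 2 (adjusted p = 0.177) or day 9 replicate 2 (adjusted p = 0.125).

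Embryonic red cell transcripts were mostly lower. Of 21 tested red cell genes 13 were lower and 1 was higher, beside 13.9% and 14% of all genes, with a median of -1.09. Day 6 held the highest level of the 4 days for 15 of the 21, beside 1092 of all 7505 genes. Of the 21, 4 were above background at day 6 only and 1 at day 9 only. The promoters of Hbb-y and Hba-x are shown because these globins of the embryo were among the largest falls and both hold CCACCC, the CACCC element that factors of the KLF family, KLF1 of red cells among them, bind. Each is the 150 bases before the RefSeq start, build GRCm38.p6, on the strand of the gene, with CCACCC in capitals: Hbb-y at chr7:103853208-103853357 on the reverse strand and Hba-x at chr11:32276450-32276599 on the forward strand.
Hbb-y: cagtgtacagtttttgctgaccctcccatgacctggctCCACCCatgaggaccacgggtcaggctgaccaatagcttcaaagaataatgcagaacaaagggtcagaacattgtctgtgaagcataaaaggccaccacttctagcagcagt
Hba-x: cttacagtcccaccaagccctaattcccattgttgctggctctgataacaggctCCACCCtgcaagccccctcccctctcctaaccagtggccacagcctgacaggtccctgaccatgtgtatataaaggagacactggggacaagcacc

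On either strand, CCACCC was found in 6430 of 32475 distinct promoter windows (19.8%). Of the 15 tested red cell genes with a window, 9 held it in any of their windows (60%). Among the 8 of these genes that were lower at day 9, 6 held it (75%). The first share counts windows and the others count genes, which may have several windows, so they are not like measures. A match is a description of these letters and shows neither binding nor a cause.

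Hba-x, the zeta chain of the first hemoglobin, stood at 7.69 and 7.94 at day 9, against 12.77 and 11.08 at day 6, and was 17.2-fold lower (-4.11 ± 0.36, adjusted p = 1.22e-06). Hbb-bh1, a beta-like chain of the same stage, stood at 10.39 and 10.64 at day 9, against 14.61 and 14.06 at day 6, 14.0-fold lower (adjusted p = 5.5e-09). Hbb-y, the epsilon chain, stood at 10.19 and 10.27 at day 9, against 13.90 and 12.36 at day 6, 7.46-fold lower (adjusted p = 3.48e-05). The days did not overlap for any of the 3 chains, and day 6 replicate 1 was the brighter day 6 array for each. At days 0 and 3 the log2 intensities of Hba-x, Hbb-bh1 and Hbb-y lay between 5.20 and 5.94, and all 3 had their highest level of the 4 days at day 6. The alpha chain Hba-a1, which is used in embryo and adult, fell by 1.51 ± 0.27 (adjusted p = 0.000855), and its copy Hba-a2 is near-identical, so that the probe may read both. The 1 higher gene was the adult beta chain Hbb-b2, at 6.57 and 7.17 at day 9, against 5.16 and 5.28 at day 6, below background, and at least 1.24-fold higher (adjusted p = 7.8e-05), with the same doubt about its copy Hbb-b1. Klf1, the red cell activator of globin genes, stood at 5.80 and 5.60 at day 9, below background, against 7.88 and 7.56 at day 6, and was at least 2.28-fold lower (adjusted p = 2.57e-06). Alas2, which starts heme synthesis in red cells, was at least 3.73-fold lower, and Car2, a carbonic anhydrase, fell by 2.09 ± 0.15 (adjusted p = 2.01e-07). Slc4a1, the band 3 anion exchanger of the red cell membrane, stood at 9.31 and 9.28 at day 9, against 12.10 and 10.18 at day 6 (adjusted p = 0.00466). Without day 6 replicate 1, 11 red cell genes were lower and 1 higher, and without day 6 replicate 2, 15 and 1, while median centring gave 17 and 1. The change of Slc4a1 was -1.84 with all arrays, -0.88 without day 6 replicate 1 and -2.80 without day 6 replicate 2, and that of Hba-a1 was -0.98 without day 6 replicate 1.

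Endothelial transcripts were mostly lower, 17 of 21 tested being called lower and 0 higher, beside 13.9% of all genes lower, with a median of -1.11. Of the 21, 8 were above background at day 6 only and could be called in 1 direction only, so the count is a description, and 15 had their highest level of the 4 days at day 6. Tek (TIE2), the angiopoietin receptor, stood at 6.11 and 6.08 at day 9, below background, against 8.41 and 8.84 at day 6, and was at least 4.29-fold lower (adjusted p = 1.83e-06). Aplnr, the apelin receptor of early vessels, was at least 3.79-fold lower, Rasip1, which opens vessel lumens, at least 2.22-fold, and Flt1, a receptor of VEGF, at least 1.97-fold lower. Plvap, a protein of endothelial pores, stood at 8.14 and 7.80 at day 9, against 9.61 and 9.43 at day 6 (-1.55 ± 0.17, adjusted p = 1.37e-05), and Esam, an endothelial adhesion molecule, fell by 1.66 ± 0.17 (adjusted p = 5.06e-06). In each of these genes both day 9 arrays lay below both day 6 arrays. Kdr, the main VEGF receptor, was 1 of the 4 members not called, with 12.06 and 11.81 at day 9, against 11.77 and 11.66 at day 6 (0.22 ± 0.22, adjusted p = 0.503). The ligand Vegfa rose by 1.39 ± 0.16 (adjusted p = 1.75e-05), with 11.93 and 12.17 at day 9, against 10.50 and 10.81 at day 6. Cdh5, Eng and Vwf were not detected at either day. With median centring 17 members were again lower and 0 higher, without day 6 replicate 1 the counts were 17 and 0, and without day 6 replicate 2 they were 13 and 0, with Flt1 at -1.01.

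Genes of replication and mitosis were lower by small amounts. Of 40 tested genes 26 were lower and 0 higher, beside 13.9% and 14% of all genes, with a median of -0.57. Of the 40, 2 were above background at day 6 only. Uhrf1, which copies DNA methylation onto new strands, stood at 11.10 and 11.23 at day 9, against 12.06 and 12.24 at day 6 (-0.99 ± 0.13, adjusted p = 8.9e-05). Mcm5, a subunit of the replicative helicase, stood at 9.67 and 9.58 at day 9, against 10.41 and 10.51 at day 6 (-0.83 ± 0.12, adjusted p = 0.000147), and Fen1, which trims Okazaki fragments, fell by 0.93 ± 0.14 (adjusted p = 0.000176). The mitotic kinase Aurka fell by 0.96 ± 0.21 (adjusted p = 0.00407) and was not called without day 9 replicate 1 (adjusted p = 0.0594). Cdk1, the mitotic cyclin-dependent kinase, fell by 0.56 ± 0.15 (adjusted p = 0.011) on the probe used, while its other probe changed by 0.47, so its direction is uncertain. Cdk1 was not called without day 6 replicate 2 (adjusted p = 0.0768) or day 9 replicate 2 (adjusted p = 0.0873). Without day 6 replicate 1 the list gave 22 lower genes without day 6 replicate 2 it gave 14, without day 9 replicate 1 it gave 20 and without day 9 replicate 2 it gave 10, with 0 higher in each. At a 2-fold threshold 0 were called. With median centring 36 were lower and 0 higher. Among 16 tested G1 cyclins and cell cycle inhibitors 2 were higher and 0 lower, or 2 and 1 without day 6 replicate 1 and 2 and 3 with median centring. The share of these 16 called higher was 12.5%, beside 14% of all genes. The inhibitor Cdkn2b, a target of TGF-beta, was at least 1.79-fold higher, and the cyclin Ccnd2 rose by 1.12 ± 0.16 (adjusted p = 0.000144).

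**Figure D3:**
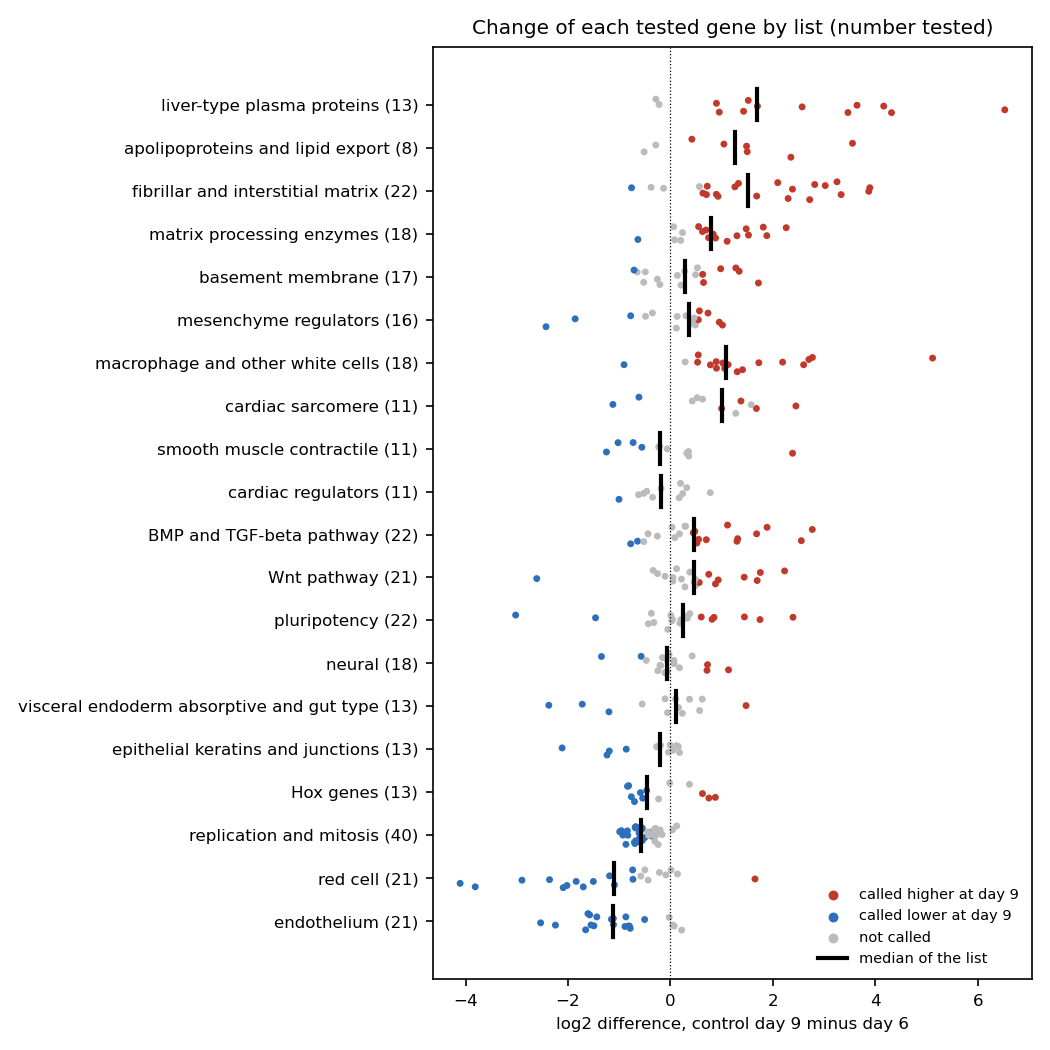
Log2 difference, day 9 minus day 6, of each tested gene in 20 lists, with the number tested in brackets. Red points were called higher at day 9, blue points lower and grey points neither, the black bar is the median of the list and the dotted line the median of all genes, -0.02; the medians run from 1.70 for liver-type plasma proteins to -1.11 for endothelium.

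A few stem cell transcripts were higher at day 9 than at day 6, though far below day 0. Of 22 tested pluripotency genes 6 were higher and 2 lower (3 and 2 without day 9 replicate 1, and 4 and 3 with median centring), with a median of 0.24. The shares called were 27.3% higher and 9.09% lower, beside 14% and 13.9% of all genes. Of the 22, 18 had their highest level of the 4 days at day 0. Among them 12 of the 22 were below background at both days and 3 were above it at day 9 only. Dppa5a, an RNA-binding protein of stem and germ cells, stood at 9.61 and 8.53 at day 9, against 6.40 and 6.96 at day 6 (2.39 ± 0.27, adjusted p = 1.56e-05), and at 14.18 and 13.90 at day 0. Nanog, a core pluripotency factor, stood at 9.06 and 8.31 at day 9, against 6.91 and 7.58 at day 6 (1.44 ± 0.26, adjusted p = 0.000872), and at 13.43 and 13.53 at day 0. Klf5, a factor of stem cells and of several epithelia, stood at 10.85 and 11.06 at day 9, against 9.15 and 9.26 at day 6 (1.75 ± 0.17, adjusted p = 2.6e-06). Pou5f1, the factor that defines pluripotent cells with Nanog and Sox2, was below background at both days. Sox2 stood at 10.46 and 10.26 at day 9, against 9.31 and 9.79 at day 6 (0.81 ± 0.22, adjusted p = 0.0134), and its second probe changed by 0.04. The Sox2 call was lost without day 6 replicate 1 (adjusted p = 0.116) or day 9 replicate 1 (adjusted p = 0.0921), or with median centring (adjusted p = 0.142). Zfp42 (REX1) was at least 1.60-fold higher (adjusted p = 0.0147), a call lost without day 6 replicate 2 (adjusted p = 0.0798) or day 9 replicate 1 (adjusted p = 0.124), or with median centring (adjusted p = 0.0747). The lower members were genes that peaked at day 3. Lin28a stood at 7.82 and 7.35 at day 9, against 10.13 and 11.09 at day 6 (-3.02 ± 0.24, adjusted p = 6.07e-07). Sall4 stood at 6.88 and 6.95 at day 9, against 7.80 and 8.94 at day 6 (-1.46 ± 0.28, adjusted p = 0.00127). Sall4 changed by -0.89 without day 6 replicate 2. What share of the cells carried the higher stem cell transcripts was not tested.

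**Figure D4:**
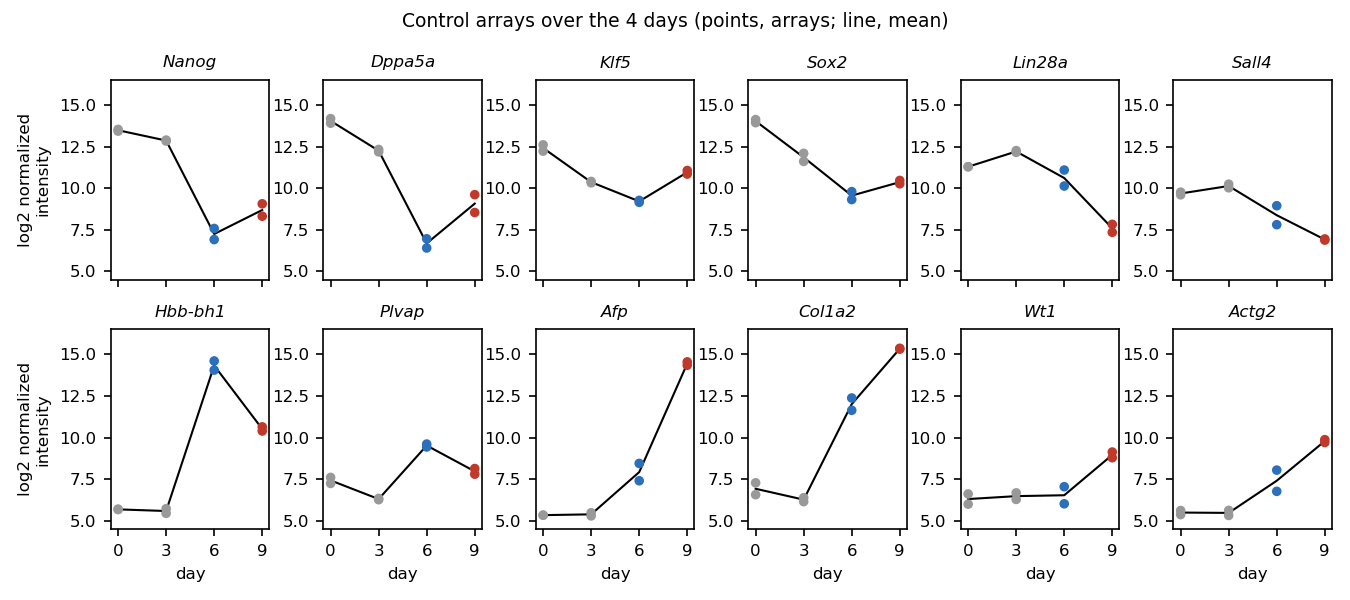
Log2 intensity of 12 genes in the control arrays at days 0, 3, 6 and 9, with points for the 2 arrays of a day (blue at day 6, red at day 9) and a line through the means. Nanog, Dppa5a, Klf5 and Sox2 have their lowest mean at day 6, Lin28a and Sall4 fall on to day 9, Hbb-bh1 and Plvap peak at day 6, and Afp, Col1a2, Wt1 and Actg2 are highest at day 9.

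Other early lineages were scarce, with 7 primitive streak and 8 neural genes below background at both days. The counts here stand beside 14% of all genes called higher and 13.9% lower. Shares higher and lower were 9.09% and 18.2% of primitive streak genes, 16.7% and 11.1% of neural genes and 15.8% and 26.3% of imprinted genes. They were 23.1% and 53.8% of Hox genes and 30.4% and 13% of glycolysis genes. Of 11 tested primitive streak genes 1 was higher and 2 were lower (3 lower without day 6 replicate 1 or with median centring, and 1 lower without each other array in turn), and all 11 had their highest level at day 3. Of 18 tested neural genes 3 were higher and 2 lower (3 and 1 without day 9 replicate 1, 2 and 1 without day 9 replicate 2, and 2 and 4 with median centring), with a median of -0.07. Among the lower ones was Nes (nestin), an intermediate filament of progenitors that vessels and mesenchyme also make, which fell by 1.35 ± 0.17 (adjusted p = 4.06e-05). The neural genes Sox1, Tubb3 and Dcx were not detected at either day, and Pax6 and Stmn2 were below background at both. Of 13 tested Hox genes, which set position along the body axis, 3 were higher and 7 lower, with a median of -0.46. This balance rested on the arrays used: 4 were higher and 4 lower without day 6 replicate 1, 1 and 3 without day 6 replicate 2, 1 and 4 without either day 9 array in turn, and 1 and 7 with median centring. Hoxc6 rose by 0.88 ± 0.17 (adjusted p = 0.00186), and Hoxd9 fell by 0.84 ± 0.14 (adjusted p = 0.000465). Of the 13 Hox genes, 3 were above background at day 6 only. Of 19 tested imprinted genes 3 were higher and 5 lower, or 1 and 4 without day 6 replicate 2 and 1 and 7 with median centring. Phlda2, a growth restrainer of the placenta, fell by 1.91 ± 0.23 (adjusted p = 3.3e-05) and the amino acid carrier Slc38a4 fell by 1.09 ± 0.14 (adjusted p = 6.71e-05), while Asb4 rose by 1.33 ± 0.22 (adjusted p = 0.000562). In glycolysis and its oxygen-sensitive genes, 7 of 23 tested were higher and 3 lower, with median centring 2 were higher and 9 lower, and leaving out day 6 replicate 2 or either day 9 array gave 4 and 2. The glucose transporter Slc2a1 fell by 1.43 ± 0.22 (adjusted p = 0.000277) and Slc2a3 fell by 1.45 ± 0.30 (adjusted p = 0.00247). Next to Vegfa the triose isomerase Tpi1 rose by 0.77 ± 0.15 (adjusted p = 0.00158), or by 0.29 with median centring, where it was not called (adjusted p = 0.117). Housekeeping lists stayed near the median of all genes: 2 of 58 ribosomal protein genes were higher and 0 lower, and 2 of 70 respiratory chain genes were higher and 2 lower, with medians of 0.07 and -0.03. Asb4 and Slc2a3 changed by 0.87 and -0.79 without day 6 replicate 2, both still called. With median centring 1 ribosomal gene was higher and 17 were lower, and 0 respiratory chain genes were higher and 34 lower.

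The same interval was measured in REST -/- bodies, whose arrays are not shared with the control comparison although all 16 arrays enter 1 fit. In the knockout 2643 of 7505 genes were called (35.2%), 1329 higher (17.7%) and 1314 lower (17.5%) at day 9. Genes called higher in both genotypes numbered 837, which was 79.8% of the control list and 63% of the knockout list, and 4 of the control list were called lower in the knockout. Genes called lower in both numbered 728, or 69.8% of the control list and 55.4% of the knockout list, and 3 of the control list were called higher in the knockout. The difference between the 2 changes was itself called in 73 genes (0.973%), the control change being above the knockout change in 46 (0.613%) and below it in 27 (0.36%). The labels name no line or clone of either genotype, so an effect of the deletion and another difference between the cells used cannot be told apart.

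The 5 genes whose control change lay furthest above the knockout change were all of plasma proteins or lipoproteins: Alb, Fgb, Itih2, Ambp and Apoa2. Of the 13 tested members of the liver-type list 6 had a larger change in the control: Alb, Fgb, Itih2, Ambp, Trf and Kng1. The plasma protein and lipoprotein genes named here were below background at day 6 in the control, so the changes given for them are fitted values and not folds. Alb changed by 4.31 ± 0.14 in the control and by 0.70 ± 0.14 in the knockout, where its log2 intensity was 6.15 and 6.04 at day 9, against 5.43 and 5.38 at day 6, below background at both days. The changes of Alb differed by 3.62 ± 0.19 (adjusted p = 1.07e-07). Fgb changed by 3.46 ± 0.16 in the control and by 0.31 ± 0.16 in the knockout, where it was above background at both days, with 7.44 and 7.51 at day 9, against 7.17 and 7.16 at day 6 (difference adjusted p = 1.85e-06). The differences were 2.50 for Itih2, 2.39 for Ambp, 2.28 for Apoa2, 1.86 for Trf and 1.58 for Kng1. Afp changed by 6.52 ± 0.25 in the control and by a fitted 6.50 ± 0.25 in the knockout, where it stood at 12.78 and 12.77 at day 9, against 6.03 and 6.53 at day 6, a difference of 0.02 ± 0.36 (adjusted p = 0.994). Its probe was above background on 1 of the 2 knockout day 6 arrays, so the knockout change and this difference are uncertain, and at day 9 both control arrays (14.55 and 14.35) lay above both knockout arrays. Some of the largest changes named above were called in the same direction in both genotypes. Col6a1 changed by 3.87 in the control and 4.14 in the knockout, Dcn by 3.89 and 3.71, Pf4 by 5.12 and 5.84, Hbb-bh1 by -3.81 and -3.64, and Tek by -2.53 and -2.87. For none of these 5 was the difference called. The values of Tek, below background at day 9 in both genotypes, and of Pf4 in the knockout, below background there at day 6, are fitted. Lox was an exception among the matrix enzymes, with fitted changes from below background of 2.26 in the control and 1.10 in the knockout (difference 1.16 ± 0.24, adjusted p = 0.0286). This call was lost without any of 5 of the 8 arrays in turn, with adjusted p between 0.0754 and 0.159. Ccnd2 was called in opposite directions, by 1.12 ± 0.16 in the control and -0.60 ± 0.16 in the knockout (difference adjusted p = 0.000913). Genes whose control change was the lower one were led by Cbln4, a secreted synapse organiser in the brain, which was below background at both days in the control. It stood in the knockout at 10.99 and 11.09 at day 9, against 6.60 and 6.72 at day 6 (difference -3.96 ± 0.24, adjusted p = 3.64e-07). Vstm2l and Fam155a, both known for expression in the nervous system, and Ghrl, the precursor of the hormone ghrelin, were likewise below background at day 9 in the control, and differed by -2.56, -2.26 and -2.12. Nepn (nephrocan), a secreted protein of early endoderm, stood in the control at 8.81 and 8.44 at day 9, against 10.69 and 9.60 at day 6, and in the knockout at 9.93 and 9.84 at day 9, against 8.91 and 8.73 at day 6 (difference -2.58 ± 0.36, adjusted p = 0.00144). The control change of Nepn was -0.98 without control day 6 replicate 1, and that of Vstm2l, not called with all arrays, was -0.86 (adjusted p = 0.00756) without control day 6 replicate 2.

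**Figure D5:**
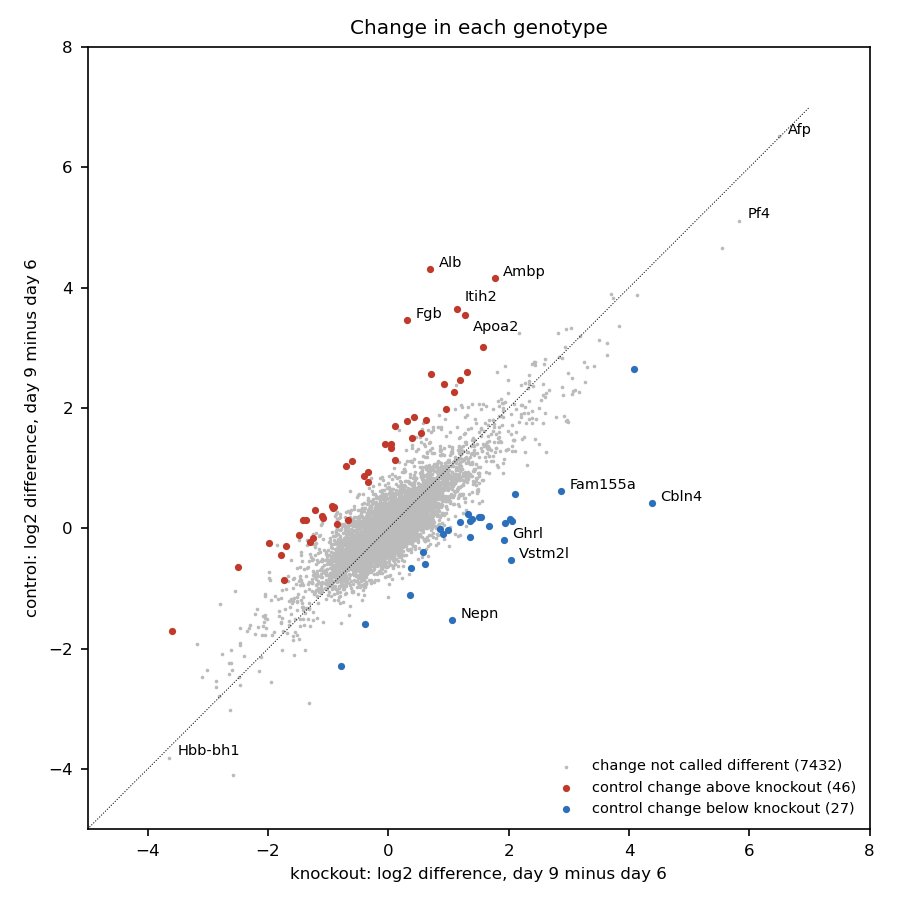
Log2 difference, day 9 minus day 6, of 7505 genes in knockout bodies (horizontal axis) and control bodies (vertical axis), with a dotted line where both are equal. Red points are the 46 genes whose control change was above the knockout change, blue points the 27 below it; Alb, Fgb, Ambp, Itih2 and Apoa2 lie above the line, Cbln4 and Nepn below it, and Afp on it.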

How the data were processed

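RNA of 16 samples, 2 genotypes at days 0, 3, 6 and 9 with 2 arrays per group, was measured on 1-colour Illumina bead arrays. The deposited table holds non-normalized intensity values with a detection p-value per probe and array, per the file headers, with the scanner software not given in the sources used. The authors' value table was used only as an alternative. Its values were read as linear intensities and put on the log2 scale after an offset of 16 was added. The sources used do not name the tool that made it.

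Intensities were background-corrected with neqc (offset 16), quantile-normalized and put on the log2 scale in limma 3.58.1 under R 4.3.3. A probe was kept where some group had detection p-values under 0.01 on each of its arrays, which left 10241 of 25697, and each gene was represented by its detected probe of highest mean. Symbols came from the platform annotation, in which 23978 probes had 1 symbol, 1719 had none and 0 had several, and 23962 matched RefSeq. The linear model took 8 group means from the 16 arrays, with 8 residual and 6.4 prior degrees of freedom, and p-values were adjusted by Benjamini-Hochberg over 7505 genes. The fit was tested on simulated data.

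Of 625 further probes of called genes, 578 had the same sign as the probe used. The comparison and the 36 gene lists were chosen with earlier results of these data known. The text names the 15 largest rises and 15 largest falls, from each list the first 4 tested members and the 6 largest called changes (any member of lists with up to 15 tested), the 5 largest genotype differences each way, and cell type markers. Axin2, Bgn, Ccn1, Col5a2, Col11a1, Dkk3, Hbb-b2, Lum, Myb, Serpinh1, Slc4a1 and Spi1 were chosen after their values were seen. Alternatives changed the normalization, offset, filter, arrays fitted, priors, weights, replicate block, probe choice and fold threshold, and left out each array in turn. The number of arrays limits the precision.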

Additional observations from a re-analysis of the deposited data

Results flagged for a closer look

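The change from day 6 to day 9 differed between the genotypes, by the interaction term of the limma fit, in 73 genes: it was above the knockout change in 46 and below it in 27, beside 692 genes of 7505 at an unadjusted p below 0.05. The differences below are the control change minus the knockout change on the log2 scale, and whether the deletion or another difference between the cells used accounts for them was not tested.

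Among plasma protein and lipoprotein genes the difference was 3.62 for Alb, 3.16 for Fgb, 2.50 for Itih2, 2.39 for Ambp, 2.28 for Apoa2, 1.86 for Trf and 1.58 for Kng1, all fitted values, since these genes were below background at day 6 in the control. Both day 9 control arrays lay above both day 9 knockout arrays in each of these 7 genes. The differences of Trf and Kng1 were not called without background correction (adjusted p = 0.411 and 0.185) or with the deposited value table (adjusted p = 0.456 and 0.192), whereas the other 5 were called under every setting tried. Igfbp1, a binding protein made by liver, differed by 1.29, and was not called with the deposited value table (adjusted p = 0.0734).

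Ccnd2 differed by 1.72, with log2 intensities in the control of 10.35 and 10.31 at day 9, against 9.10 and 9.32 at day 6, and in the knockout of 9.13 and 9.44 at day 9, against 9.86 and 9.92 at day 6. Grhl2, Lox and Lsr differed by 1.28, 1.16 and 0.87. Each of these 3 calls was lost under several settings, with adjusted p of up to 0.168 for Grhl2, 0.294 for Lox and 0.261 for Lsr.

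The control change lay below the knockout change by -3.96 in Cbln4, -2.58 in Nepn, -2.56 in Vstm2l, -2.26 in Fam155a and -2.12 in Ghrl. Vstm2l stood in the knockout at 12.64 and 12.71 at day 9, against 10.49 and 10.77 at day 6, and in the control at 5.92 and 5.75 at day 9, against 6.69 and 6.02 at day 6. With the deposited value table the differences of Cbln4 (adjusted p = 0.063), Fam155a (adjusted p = 0.0614) and Nepn (adjusted p = 0.113) were not called, and that of Nepn was not called without background correction either (adjusted p = 0.099).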

How the results depend on the processing

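The control comparison gave between 1136 and 1949 called genes when an array was left out, with 649 to 1000 higher and 487 to 949 lower, the fewest without day 6 replicate 2. Without day 9 replicate 2 it gave 1152 calls, and without day 9 replicate 1 it gave 646 lower genes. Median centring gave 3306 (552 higher, 2754 lower), a 2-fold threshold 539 (382 and 157), and the fit on the 4 arrays alone 1555, of which 689 lower. The other settings gave 1635 to 2668 calls. Under each setting apart from the 2-fold threshold, 52.1% to 97.9% of the calls were kept, and 0 were called the opposite way except for 3 genes with every detected probe. In the knockout a 2-fold threshold gave 693 (441 and 252), median centring 881 higher and 2217 lower, and leaving out an array 1705 to 2014 (899 to 1038 and 806 to 976). The genotype difference gave 25 genes (15 above, 10 below) with the deposited value table, 36 (24 and 12) without background correction, 48 (10 below) with probes detected in the control groups only, and 45 to 167 (27 to 99 and 18 to 68) with an array left out, the most without control day 6 replicate 2.

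Among genes named without a call, the sign of the change turned with median centring for Kdr (-0.15) and Spi1 (-0.065), and without day 6 replicate 2 for Ttr (0.49), which stood at -1.06 without day 6 replicate 1. On the 4 arrays alone Actc1, Cdx2, Col3a1, Hnf4a, Myb, Pltp, Slc4a1 and Tbx3 were not called, with adjusted p between 0.0517 and 0.125. The causes were not tested.

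Array numbers did not pair the samples: deviations of same-numbered arrays correlated at -0.08 in the control and 0.14 in the knockout. With the replicate number as a block, 2005 control genes (1022 and 983), 2537 knockout genes (1285 and 1252) and 68 differences (42 and 26) were called, and that of Lsr was not (adjusted p = 0.0658). Dim genes are limited by signal over background, so those below background on a day have only a bound.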
